A study of Mus musculus with 2 samples.

Results

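Mbp encodes myelin basic protein, and all rows of its gene identifier were taken from the tables, which gave 1 of 55536 genes and 16 of 141862 transcripts. Total RNA of the left cerebral cortex, depleted of ribosomal RNA and with ERCC spike-ins added, was sequenced in female B6CASTF1/J mice, a first-generation cross of C57BL/6J and CAST/EiJ, at 14 days of age. The 2 libraries, called replicate 1 and replicate 2 in the labels, form 1 group with no second condition. Both are labelled biological replicates with the same donor entry. Their descriptions speak of 3 females, and the number of mice behind each library could not be settled from the labels. Each library was quantified by the authors in a first set of tables, from an alignment to the transcriptome, and in a second table, directly from the reads. Gene counts totalled 33362704 in replicate 1 and 32013997 in replicate 2, of which Mbp took 0.114% and 0.0651%.

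Myelin basic protein is a positively charged protein that binds the inner faces of the oligodendrocyte membrane and holds them together in compact myelin of the central nervous system. Its mRNA is carried into the processes of the cell in granules and translated there, beside the growing sheath. The gene has a second, upstream promoter. Transcripts from it are called golli transcripts, for gene of oligodendrocyte lineage, and are known from neurons, oligodendrocyte precursors and immune cells as well as from oligodendrocytes, whereas transcripts from the downstream promoter, called classic here, make the proteins of the sheath. Splicing of exons in or out gives a family of classic proteins that differ in mass, and exon 2 is known to be used more in young oligodendrocytes than in mature ones. The cortex of a mouse of this age is still being myelinated.

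Mbp lies on the plus strand of chromosome 18, from 82475146 to 82585637 on mm10. Of its 16 annotated transcripts, 4 start at the golli end of the gene and 12 start at or beyond the classic start. Among the golli-start transcripts, Mbp-201 joins the golli exons to classic exons 1, 3, 4 and 7 and encodes 250 residues in 2492 nt. Mbp-205 joins the golli exons to classic exon 1 and then reads on into the following intron, giving 195 residues in 4797 nt. Mbp-208 ends after a golli exon of its own and encodes 55 residues in 1685 nt, and Mbp-213, of 433 nt, is annotated as a target of nonsense-mediated decay.

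The classic-start transcripts begin 79324 to 79434 nt downstream of the first golli start, except Mbp-214, a noncoding transcript that begins at 88116 nt. Classic coding exon 1 holds 171 coding nt (82554580 to 82554750), exon 2 holds 78 nt (82561778 to 82561855), exon 3 holds 102 nt (82572825 to 82572926), exon 4 holds 36 nt (82575172 to 82575207), exon 6 holds 123 nt (82578936 to 82579058) and exon 7 holds 42 nt (82584112 to 82584153). Exon 5 (82575535 to 82575633) holds 99 nt at its longest and 33 nt in the commoner form. Mbp-211, without exons 2 and 6, encodes 128 residues and a protein of 14.2 kDa. Mbp-212, with exon 6 but not exon 2, encodes 169 residues and 18.5 kDa, and Mbp-215, with exon 2 but not exon 6, encodes 154 residues and 17.2 kDa. Mbp-209 holds all 7 exons and encodes 195 residues and 21.5 kDa, and Mbp-216 lacks exon 5 alone and encodes 184 residues and 20.3 kDa. Masses were computed from the annotated coding sequences with the first methionine included.

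The transcripts differ in how much sequence is theirs alone. Mbp-205 has 3955 nt of exon that no other Mbp transcript covers, of which 3953 nt follow classic exon 1. They lie in the intron between classic exons 1 and 2, where reads of Mbp-205 and of unspliced classic RNA, which total RNA also holds, cannot be told apart. Mbp-208 has 1362 such nt and Mbp-214 has 346 nt. The other 13 transcripts have 0, so reads reach them only through junctions and through the estimate that shares out common reads. Mbp-201 shares 1889 of its 2492 nt with Mbp-211 and 1935 nt with Mbp-215. Mbp-209 has no annotated 3′ untranslated region and is 638 nt long, against 2070 nt for Mbp-216, and they share 589 nt. A total of 5 classic coding transcripts lack that region.

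**Figure D1:**
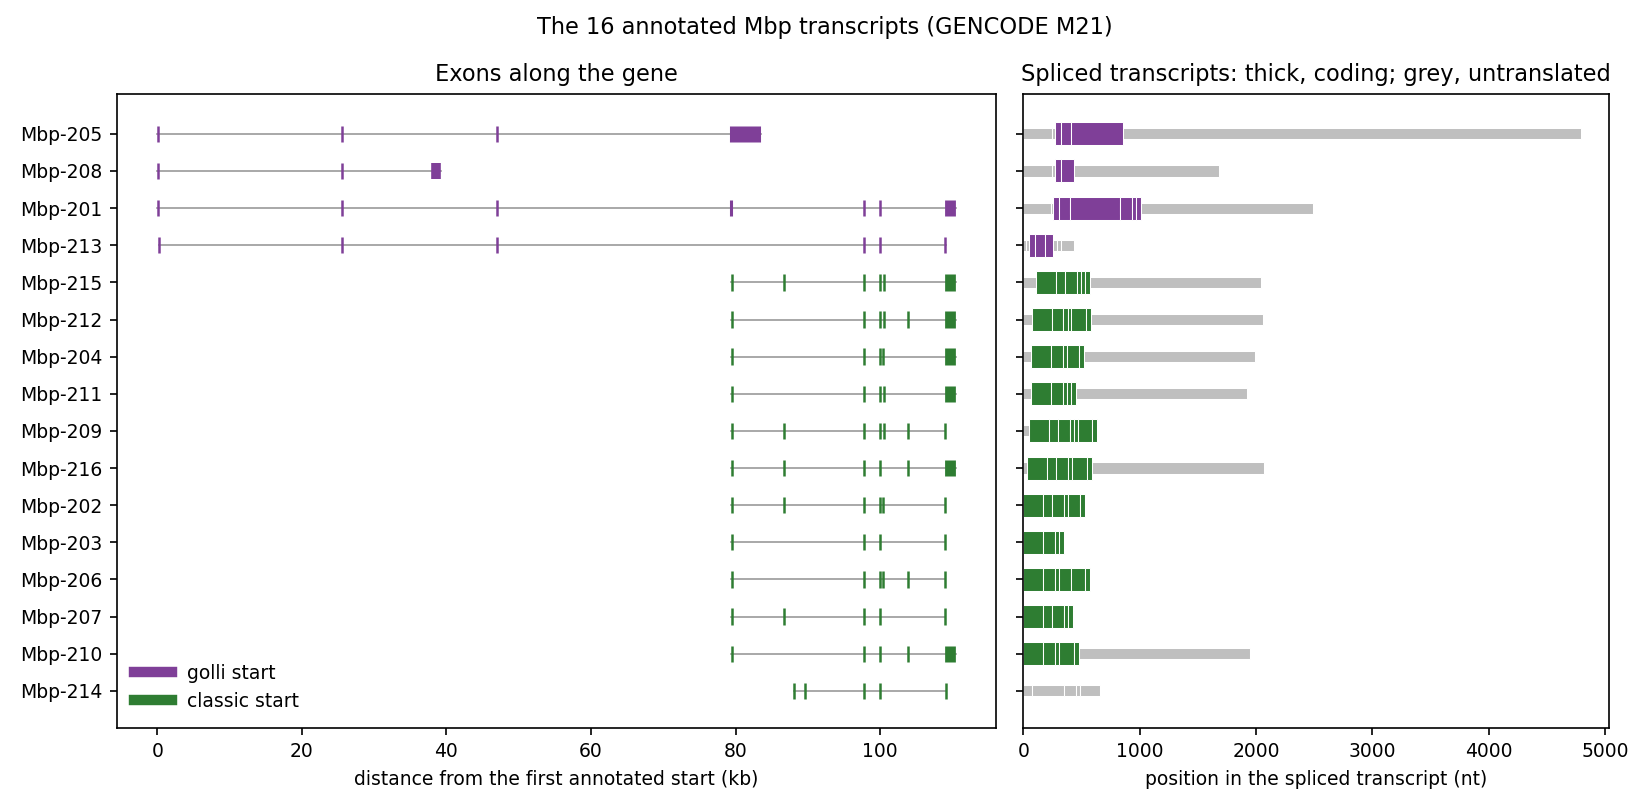
Exons of the 16 annotated Mbp transcripts, drawn on the left by distance from the first annotated start (kb) and on the right along the spliced transcript (nt; thick, coding; grey, untranslated). The 4 golli-start transcripts (purple) begin at the left end and the 12 classic-start transcripts (green) begin from 79324 nt onward. Mbp-205 carries the longest untranslated end, in the intron after classic exon 1.

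Mbp was among the most abundant mRNAs of this cortex, and more abundant in replicate 1. In the first quantification it had 1014 TPM in replicate 1 and 575 TPM in replicate 2, a mean of 795 ± 310 TPM (SD, n = 2), where TPM is a level corrected for transcript length and scaled to the same total in each table. It ranked 14 in replicate 1 and 52 in replicate 2 among 22015 nuclear protein-coding genes. In the second quantification it had 1313 TPM in replicate 1 and 767 TPM in replicate 2, a mean of 1040 ± 386 TPM (SD, n = 2), at ranks 25 and 80. Replicate 1 was the higher library in both quantifications, by 1.76-fold in the first and 1.71-fold in the second. In bulk tissue, more cells of a type and more RNA per cell cannot be told apart.

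The difference was tested on counts. Mbp had 38001 expected counts in replicate 1 and 20848 in replicate 2. The log2 ratio was 0.86 ± 0.01 (counting SE), or 1.82-fold, and the adjusted p was at 1e-300, the smallest value written (exact binomial test, Benjamini-Hochberg over 18887 genes). In this test 2152 genes, 11.4% of those tested, were called higher in replicate 1 and 1678 genes, 8.88%, lower. A call is therefore common, and the p covers counting error alone and compares these libraries, not conditions. A one-sided exact test that takes the library as the unit, 1 against 1, cannot go below p = 0.5. The size of the difference was less common, since 82 of the tested genes (0.434%), Mbp included, had a log2 ratio at or above that of Mbp, while the median gene was at 0.00 and the central 90% of genes lay between -0.45 and 0.35. Of the calls, 56.2% were higher and 43.8% lower in replicate 1, against 29.5% and 70.5% when total counts set the scale and 32.4% and 67.6% when spike-ins did. The log2 ratio of Mbp was 0.81 under both of these scalings.

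The first quantification put most Mbp RNA in Mbp-211, the 14.2-kDa form. It had 662 TPM in replicate 1 and 341 TPM in replicate 2, which made 65.3% and 59.3% of Mbp TPM. Mbp-212, the 18.5-kDa form, followed with 135 TPM in replicate 1 and 87.5 TPM in replicate 2, or 13.4% and 15.2%. Mbp-209, the 21.5-kDa form, had 119 TPM in replicate 1 and 68.1 TPM in replicate 2, or 11.7% and 11.8%, and Mbp-216, the 20.3-kDa form, had 70.0 TPM in replicate 1 and 40.2 TPM in replicate 2, or 6.90% and 6.99%. All of these classic transcripts were higher in replicate 1, and the libraries agreed on their order. Mbp-215, the 17.2-kDa form with exon 2, was listed at 0 in both libraries.

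For Mbp-215 the deposited first table also holds a posterior mean, which averages over the possible assignments of shared reads. It was 205 counts with a posterior SD of 152 in replicate 1, and 93.4 counts with a posterior SD of 106 in replicate 2. The 0 of this transcript is therefore an estimate, taken from the authors' table. The posterior SD covers the sharing of reads within that quantification and does not bound the error of the 0. The second quantification gave Mbp-215 7692 counts in replicate 1 and 4474 in replicate 2. For Mbp-211 the same columns gave 25580 ± 304 counts in replicate 1 and 12588 ± 253 in replicate 2.

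The second quantification shared the reads out differently. Its most abundant transcript in both libraries was the golli-start Mbp-201, with 365 TPM in replicate 1 and 214 TPM in replicate 2, or 27.8% and 27.9% of Mbp TPM. Mbp-211 had 346 TPM in replicate 1 and 144 TPM in replicate 2, or 26.3% and 18.8%. Mbp-215 had 260 TPM in replicate 1 and 160 TPM in replicate 2, or 19.8% and 20.8%. Mbp-211 stood above Mbp-215 in replicate 1 and below it in replicate 2. Mbp-212 had 248 TPM in replicate 1 and 137 TPM in replicate 2, or 18.9% and 17.8%. Mbp-209 had 28.3 TPM in replicate 1 and 51.7 TPM in replicate 2, and Mbp-216 had 30.1 TPM in replicate 1 and 24.7 TPM in replicate 2. Mbp-201, Mbp-211, Mbp-215, Mbp-212, Mbp-209 and Mbp-216 all have no nucleotide of their own. Mbp-214, with 346 nt of its own, had 0.48 TPM in replicate 1 in the first quantification and 2.18 TPM in the second. In replicate 2 it had 1.87 TPM in the first and 2.13 TPM in the second. A link between own nucleotides and the difference between quantifications was not tested.

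Among golli-start transcripts, the counts of Mbp-205 lay closer between the quantifications than those of Mbp-201. Mbp-205 had 15.8 TPM in replicate 1 and 17.6 TPM in replicate 2 in the first quantification, and 22.6 TPM in replicate 1 and 25.2 TPM in replicate 2 in the second. Its counts were 1588 in replicate 1 and 1696 in replicate 2 in the first, with a posterior SD of 14.0 in each, and 1752 in replicate 1 and 1846 in replicate 2 in the second. Mbp-208 was near the floor of detection, with 15 counts in replicate 1 and 11 in replicate 2 in the first quantification, and 16 counts in each library in the second. Its TPM was 0.44 in replicate 1 and 0.33 in replicate 2 in the first, and 0.687 and 0.726 in the second. Mbp-201 reached 5.26 TPM in replicate 1 and 5.80 TPM in replicate 2 in the first, from 270 and 285 counts, against 13621 and 7558 counts in the second.

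The remaining 8 transcripts held little RNA in any table. Mbp-213 was at 0 in all 4 tables. Mbp-204, with the 99-nt exon 5, reached 4.34 TPM in replicate 1 and 1.58 TPM in replicate 2 in the first quantification, and 4.23 TPM in replicate 1 and 7.72 TPM in replicate 2 in the second. The noncoding Mbp-214 had 0.48 TPM in replicate 1 and 1.87 TPM in replicate 2 in the first, and 2.18 TPM in replicate 1 and 2.13 TPM in replicate 2 in the second. Mbp-207 showed 0.17 TPM in replicate 1 and 10.1 TPM in replicate 2 in the first and 0 in both libraries in the second. Mbp-206 had 1.24 TPM in replicate 1 and 0.74 TPM in replicate 2 in the first, and 5.04 TPM in replicate 1 and 0 in replicate 2 in the second. Mbp-202, Mbp-203 and Mbp-210 were at 0 in at least 2 of the 4 tables and reached no more than 1.84 TPM.

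**Figure D2:**
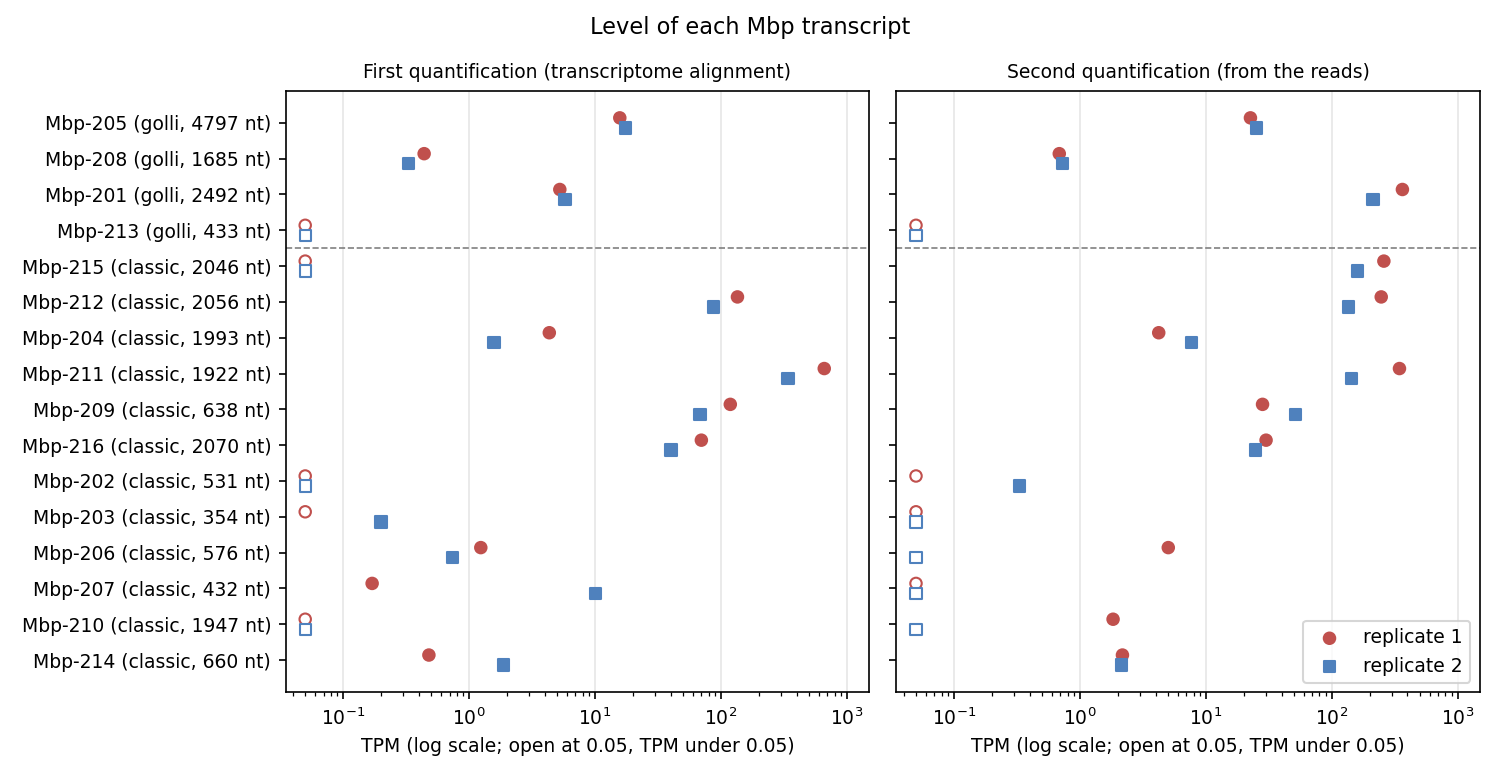
TPM of each Mbp transcript (log axis) in replicate 1 (circles) and replicate 2 (squares), in the first quantification (left) and the second (right); the dashed line parts golli-start from classic-start transcripts and open symbols mark TPM under 0.05. Mbp-205 sits between 15.8 and 25.2 TPM in all 4 tables, whereas Mbp-201 moves between 5.26 and 365 TPM and Mbp-215 between 0 and 260 TPM.

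The same test was run on transcripts. In the first quantification 11 of the 16 Mbp transcripts had 10 counts or more in at least 1 library, and 5 of them were called higher in replicate 1, 2 lower and 4 not called. Over all 57091 transcripts tested, 16.9% were called higher and 19.3% lower. In the second quantification 12 were tested, of which 7 were called higher, 2 lower and 3 not called, where 18.2% and 18.4% of 58224 transcripts were called. Reads are assigned to transcripts by estimate, so counting error understates the error of these values.

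Among classic-start transcripts, 3 were called higher in replicate 1 in both quantifications. Mbp-211 had a log2 ratio of 1.02 ± 0.02 in the first and 1.35 ± 0.03 in the second (counting SE). Mbp-212 had 0.69 ± 0.03 in the first and 0.95 ± 0.03 in the second, and Mbp-216 had 0.85 ± 0.04 and 0.38 ± 0.07. The largest of their adjusted p was 1.01e-06 (exact binomial), for Mbp-216 in the second quantification. Mbp-215 was called higher in the second, at 0.80 ± 0.03, with no counts in the first.

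A pair of classic transcripts changed direction with the quantification. Mbp-209 had 1374 counts in replicate 1 and 754 in replicate 2 in the first, a log2 ratio of 0.85 ± 0.07, and 146 and 249 counts in the second, a log2 ratio of -0.69 ± 0.15. Mbp-204 had 177 counts in replicate 1 and 61.4 in replicate 2 in the first, a log2 ratio of 1.31 ± 0.21, and 121 and 209 counts in the second, a log2 ratio of -0.70 ± 0.16. Both passed the exact binomial test in each table, so the test does not cover the error of assignment.

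The few-count transcripts called in a single table were Mbp-207, with 1.2 counts in replicate 1 and 68.9 in replicate 2, and Mbp-214, with 5.81 and 21.6 counts, both lower in replicate 1 in the first quantification. Mbp-206, with 20.7 counts in replicate 1 and 0 in replicate 2, and Mbp-210, with 51.2 and 0.000318 counts, were called higher in the second.

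Mbp-205, the golli transcript with the most nucleotides of its own, was not called. Its log2 ratio was -0.09 ± 0.05 in the first quantification (exact binomial adjusted p = 0.128) and -0.06 ± 0.05 in the second (adjusted p = 0.380). It was called lower in replicate 1 with total counts or spike-ins in place of TMM, the default scaling of edgeR, at -0.15 under both (adjusted p = 0.00822 and 0.0118). Mbp-208 was called in neither quantification. Mbp-201 was not called in the first, at -0.07 ± 0.12 (adjusted p = 0.670), and was called higher in replicate 1 in the second, at 0.87 ± 0.02.

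Summed by start, the classic-start transcripts were higher in replicate 1 in both quantifications. Golli-start transcripts summed to 21.5 TPM in replicate 1 and 23.7 TPM in replicate 2 in the first quantification, and classic-start transcripts to 993 TPM and 552 TPM. In this quantification golli-start transcripts were therefore near the same level in both libraries, and classic-start transcripts were higher in replicate 1. Most of the golli counts were those of Mbp-205, whose intron reads cannot be told apart from unspliced classic RNA. The log2 ratio of summed counts was -0.09 ± 0.05 for the golli start and 0.94 ± 0.01 for the classic start (counting SE). The golli share of Mbp TPM was 2.11% in replicate 1 and 4.12% in replicate 2, a mean of 3.12% ± 1.42 (SD, n = 2).

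In the second quantification golli-start transcripts summed to 388 TPM in replicate 1 and 240 TPM in replicate 2, and classic-start transcripts to 925 TPM and 527 TPM. Here the log2 ratio of summed counts was 0.72 ± 0.02 for the golli start and 0.98 ± 0.02 for the classic start (counting SE), so both were higher in replicate 1. The golli share was 29.6% in replicate 1 and 31.2% in replicate 2, with Mbp-201 as the largest item. Without Mbp-201 the golli share of all Mbp TPM was 1.60% in replicate 1 and 3.11% in replicate 2 in the first, and 1.78% and 3.38% in the second. These shares keep Mbp-201 in the total. It made 27.8% and 27.9% of that total in the second quantification, against 0.519% and 1.01% in the first. The shares are therefore of unlike totals. By counts, with Mbp-201 left out of the total too, the golli share was higher in the second quantification in both libraries. The comparisons without Mbp-201 were chosen after the values were seen.

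The golli share was lower in replicate 1. By counts it was 4.93% in replicate 1 and 9.55% in replicate 2 in the first quantification, a log2 odds ratio of -1.03 ± 0.05 (two-sided Fisher's exact test on rounded counts, p = 1.10e-99). In the second it was 37.4% in replicate 1 and 41.6% in replicate 2, a log2 odds ratio of -0.25 ± 0.02 (Fisher's exact p = 1.52e-25). Without Mbp-201 it was 4.25% and 8.30% in the first, at -1.03 ± 0.05, and 6.41% and 12.3% in the second, at -1.04 ± 0.05. The direction held in all 5 versions computed, and adjustment over them left the largest p at 1.52e-25. The versions were drawn from the same reads of 2 libraries, so they are not separate checks. As with the gene, these p-values compare the reads of 2 libraries. The golli counts include the intron reads assigned to Mbp-205, some of which may come from unspliced classic RNA.

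**Figure D3:**
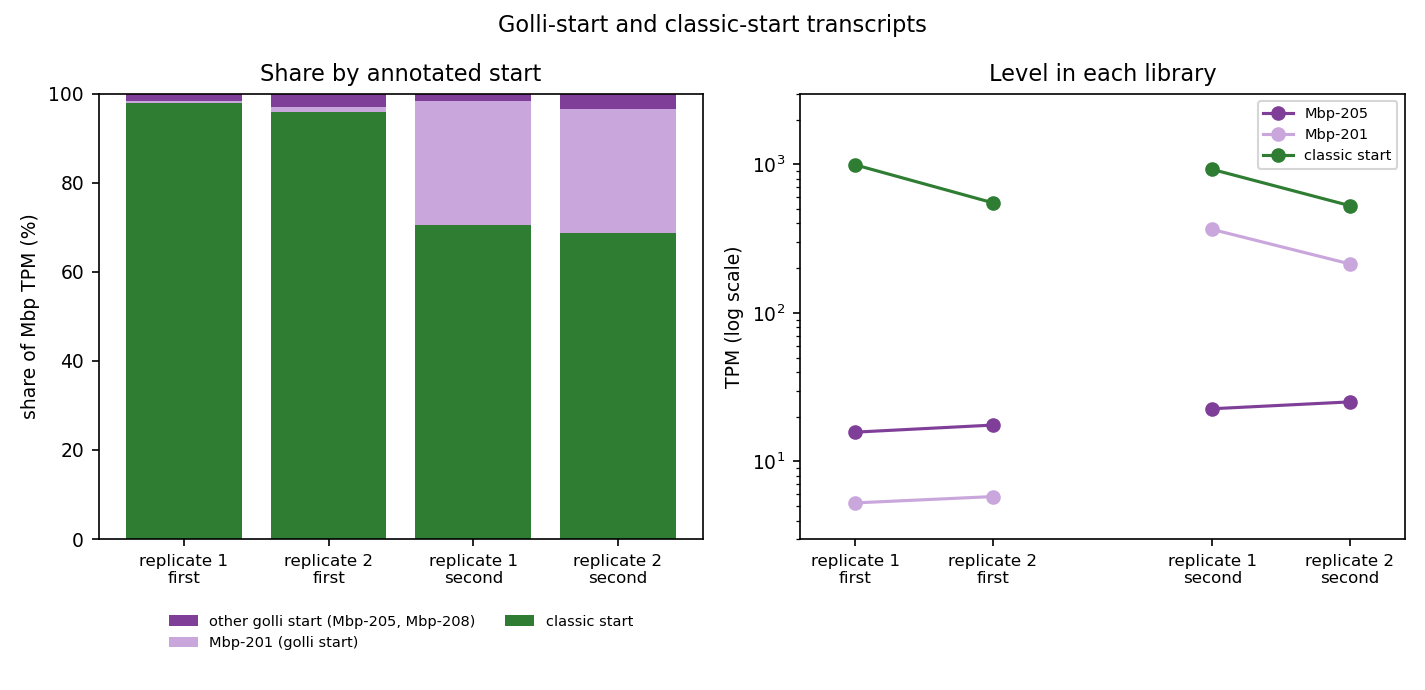
Left, share of Mbp TPM (%) in golli-start transcripts other than Mbp-201, in Mbp-201 and in classic-start transcripts, for replicate 1 and replicate 2 in the first and second quantification. Right, TPM (log axis) of Mbp-205, Mbp-201 and all classic-start transcripts in the same tables. The classic sum is higher in replicate 1 in both quantifications, Mbp-205 differs little between libraries, and Mbp-201 differs most between quantifications.

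Exon use was described over the coding classic-start transcripts. Transcripts that hold exon 2 made 19.0% of their TPM in replicate 1 and 21.5% in replicate 2 in the first quantification (mean 20.3% ± 1.75, SD, n = 2). In the second they made 34.5% in replicate 1 and 45.0% in replicate 2 (mean 39.8% ± 7.46). The second quantification gave more exon 2 in both libraries. Mbp-215 was higher in it than in the first, while Mbp-209 and Mbp-216, which also hold exon 2, were lower. Replicate 1 had the lower exon 2 share in each quantification.

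Exon 6 gave closer values. Transcripts that hold it made 32.8% in replicate 1 and 35.7% in replicate 2 in the first quantification (mean 34.3% ± 2.08, SD, n = 2), and 33.9% in replicate 1 and 40.6% in replicate 2 in the second (mean 37.2% ± 4.71). Exon 5 was held by transcripts making 92.9% in replicate 1 and 90.8% in replicate 2 in the first, and 96.5% and 95.3% in the second. The 99-nt form of exon 5 was rare, at 0.562% in replicate 1 and 0.422% in replicate 2 in the first, and 1.01% and 1.53% in the second. These shares are descriptions with no test.

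Exons 2 and 6 add to the mass of the protein, as exon 5 does. Transcripts without either exon made 67.2% in replicate 1 and 62.4% in replicate 2 in the first quantification, and 37.9% and 28.9% in the second. Transcripts with exon 6 alone made 13.8% and 16.1% in the first and 27.6% and 26.0% in the second. Those with both exons made 19.0% and 19.7% in the first and 6.33% and 14.6% in the second. Those with exon 2 alone made 0.0171% and 1.83% in the first and 28.2% and 30.5% in the second. The largest class was thus the one without either exon in replicate 1 in both quantifications and in replicate 2 in the first, while in replicate 2 in the second the class with exon 2 alone stood slightly above it. Transcripts with no annotated 3′ untranslated region, most of them Mbp-209, made 12.1% in replicate 1 and 14.4% in replicate 2 in the first, and 3.61% and 9.92% in the second.

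**Figure D4:**
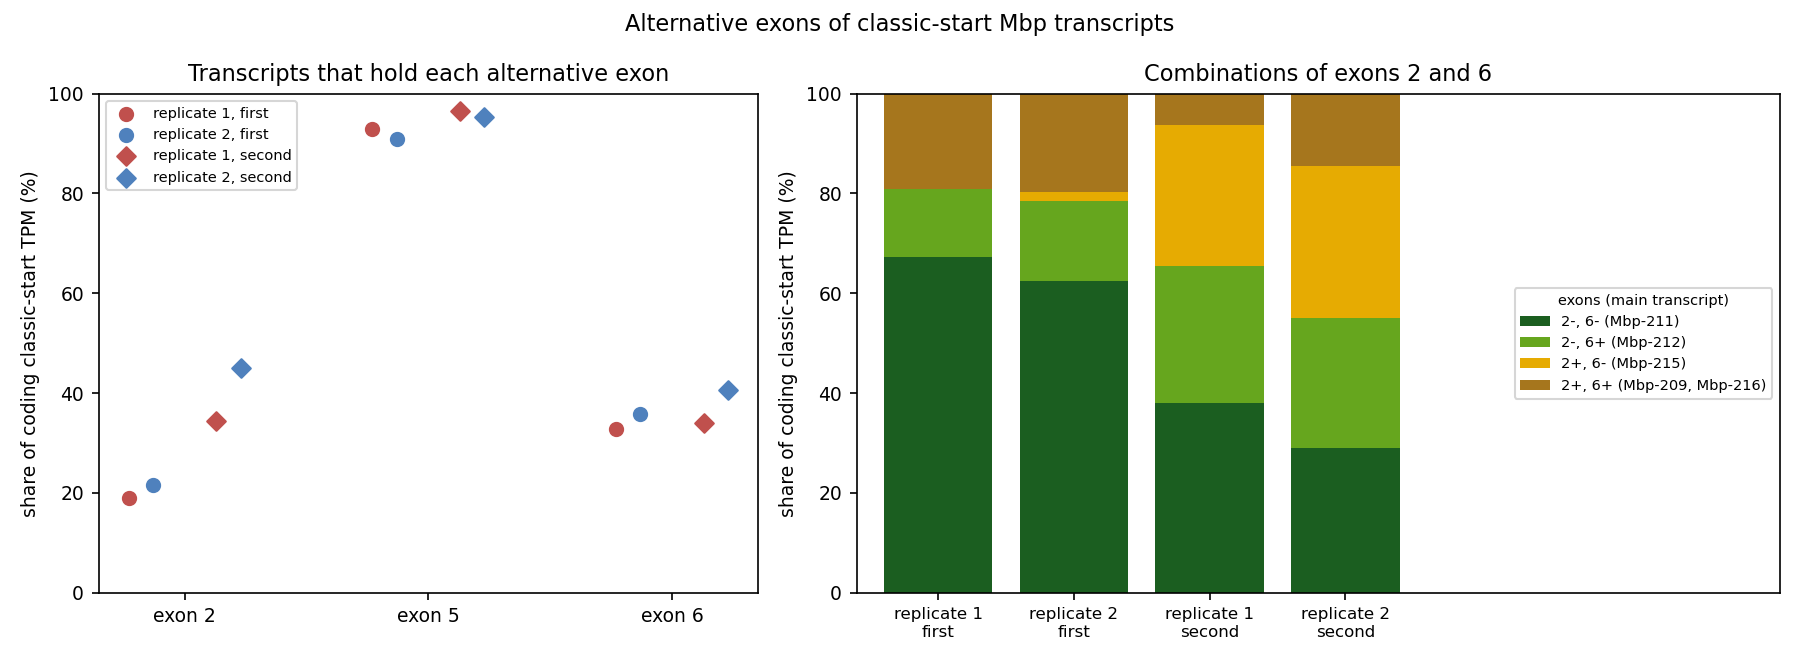
Left, share (%) of coding classic-start TPM in transcripts that hold exon 2, 5 or 6, in replicate 1 (red) and replicate 2 (blue), first quantification as circles and second as diamonds. Right, the same TPM divided by the presence (+) or absence (-) of exons 2 and 6. The exon 6 share differs less between quantifications than the exon 2 share. The class with exon 2 alone makes 0.0171% in replicate 1 and 1.83% in replicate 2 in the first but 28.2% and 30.5% in the second.

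The other proteins of the sheath moved with Mbp. All 15 genes of the myelin sheath list were called higher in replicate 1 and none lower, where 11.4% of all tested genes were called higher. Their median log2 ratio was 0.85, beside a median of 0.00 over all genes. Mobp, myelin-associated oligodendrocytic basic protein, had 203 TPM in replicate 1 and 106 TPM in replicate 2, and Cnp, an enzyme of the noncompact parts of the sheath, had 186 TPM and 116 TPM. The log2 ratios ran between 0.32 for Gpr37, a receptor of oligodendrocytes, and 1.10 for Mal, a protein of membrane sorting. These lists were chosen with earlier results of these data known. Mog, a glycoprotein of the outer myelin surface, was less abundant than Mbp, which had 23.7 times its TPM in replicate 1 and 26.4 times in replicate 2.

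The transcription regulators of the lineage had a smaller median log2 ratio than the myelin sheath list. Which cells supplied the RNA of these regulators cannot be told in bulk tissue. Of 14 genes, 5 were called higher in replicate 1, 1 lower and 8 not called, where 11.4% of all tested genes were called higher and 8.88% lower, and their median log2 ratio was 0.11. With total counts or spike-ins as the scale, 4 were called higher and 1 lower. Myrf, the factor that switches on myelin genes in maturing oligodendrocytes, had 11.3 TPM in replicate 1 and 7.57 TPM in replicate 2 and the highest log2 ratio, 0.72 ± 0.07 (exact binomial adjusted p = 1.56e-26). Hes5, a Notch target and repressor of maturation, had 15.5 TPM in replicate 1 and 23.0 TPM in replicate 2 and the lowest, -0.40 ± 0.10 (exact binomial adjusted p = 0.000388). The most abundant members were Zeb2 (89.0 TPM in replicate 1 and 94.0 TPM in replicate 2), Id2 (78.8 and 78.7 TPM) and Olig1 (67.7 and 58.3 TPM). Zeb2 and Olig1 were called higher in replicate 1, at log2 ratios of 0.08 and 0.28, and Id2 was not called. For Zeb2 the TPM was lower in replicate 1 while the ratio of scaled counts was higher.

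Genes that bind, carry or translate Mbp mRNA were often called but by small ratios. Of 12 genes, 6 were called higher in replicate 1, 2 lower and 4 not called, against 11.4% higher and 8.88% lower over all tested genes, and their median log2 ratio was 0.08. With total counts or spike-ins as the scale, 5 were called higher and 2 lower. Hnrnpk, an RNA-binding protein, had 300 TPM in replicate 1 and 317 TPM in replicate 2 and was not called. Hnrnpa2b1, which binds the transport element of Mbp mRNA, had 191 TPM in replicate 1 and 217 TPM in replicate 2, a log2 ratio of -0.11 ± 0.03, and was called lower. Kif1b, a motor that carries Mbp mRNA, as shown in zebrafish, had 204 TPM and 195 TPM, a log2 ratio of 0.09 ± 0.01, and was called higher. The highest log2 ratio was that of Cnp (0.76), which the myelin list holds too, and the lowest that of Hnrnpa1 (-0.12). Most of these genes are known from neurons as well.

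Markers of the cells that could supply Mbp RNA were set beside it, against a background of 11.4% of tested genes called higher and 8.88% lower. All 6 myelinating oligodendrocyte markers were called higher in replicate 1, with a median log2 ratio of 0.95 and a summed level of 1056 TPM in replicate 1 and 569 TPM in replicate 2. They overlap the myelin list. All 6 genes listed as oligodendrocyte precursor markers were called higher too, 4 of them with total counts or spike-ins as the scale. Their median was 0.23, with sums of 204 TPM and 178 TPM. Enpp6 (0.58) and Bcas1 (0.40) had the highest log2 ratios of this list. Olig1 had 0.28, Cspg4 0.19, Pdgfra 0.16 and Gpr17 0.10. All 5 markers of excitatory cortical neurons were called higher, with a median of 0.16 and sums of 1829 TPM and 1740 TPM. The golli transcript Mbp-205, at -0.09, lay below the medians of all 3 lists.

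Schwann cells, which make Mbp in peripheral nerve, left little trace. Of their 6 markers none of the 4 tested was called, and Pmp2, a lipid-binding protein of peripheral myelin, was at 0.07 TPM in replicate 1 and 0 in replicate 2. Their sum was 27.2 TPM in each library, of which Drp2 made 26.1 TPM and 26.0 TPM. T cells, in which golli transcripts are known, also left little. Their 6 markers summed to 4.93 TPM in replicate 1 and 4.92 TPM in replicate 2. Cd3g was at 0 in both libraries, Cd3d at 0.03 TPM and 0, and Cd8a at 0 and 0.05 TPM. Of the 2 tested, Cd4, which microglia and macrophages may also express, was called higher in replicate 1, at 2.70 TPM against 0.69 TPM in replicate 2. The other, Lck, a kinase of T cell receptor signalling, had 1.98 TPM in replicate 1 and 4.04 TPM in replicate 2, a log2 ratio of -0.37, and was not called.

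Markers of neighbouring structures also differed between the libraries, where 11.4% of all tested genes were called higher in replicate 1 and 8.88% lower. All 7 striatum markers were called higher in replicate 1, with a median log2 ratio of 0.77, a range of 0.33 to 1.18 and sums of 287 TPM in replicate 1 and 179 TPM in replicate 2. All 6 choroid plexus markers were called lower in replicate 1, with a median of -0.96 and sums of 11.8 TPM and 138 TPM, most of it Ttr (9.86 TPM and 131 TPM). In the second quantification 5 were called lower. Some rest on few counts, such as Otx2 with 4 in replicate 1 and 20 in replicate 2. The libraries thus differed in markers of tissue next to the cortex, in the case of the striatum in the same direction as Mbp, and the part of this in the Mbp difference was not tested.

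**Figure D5:**
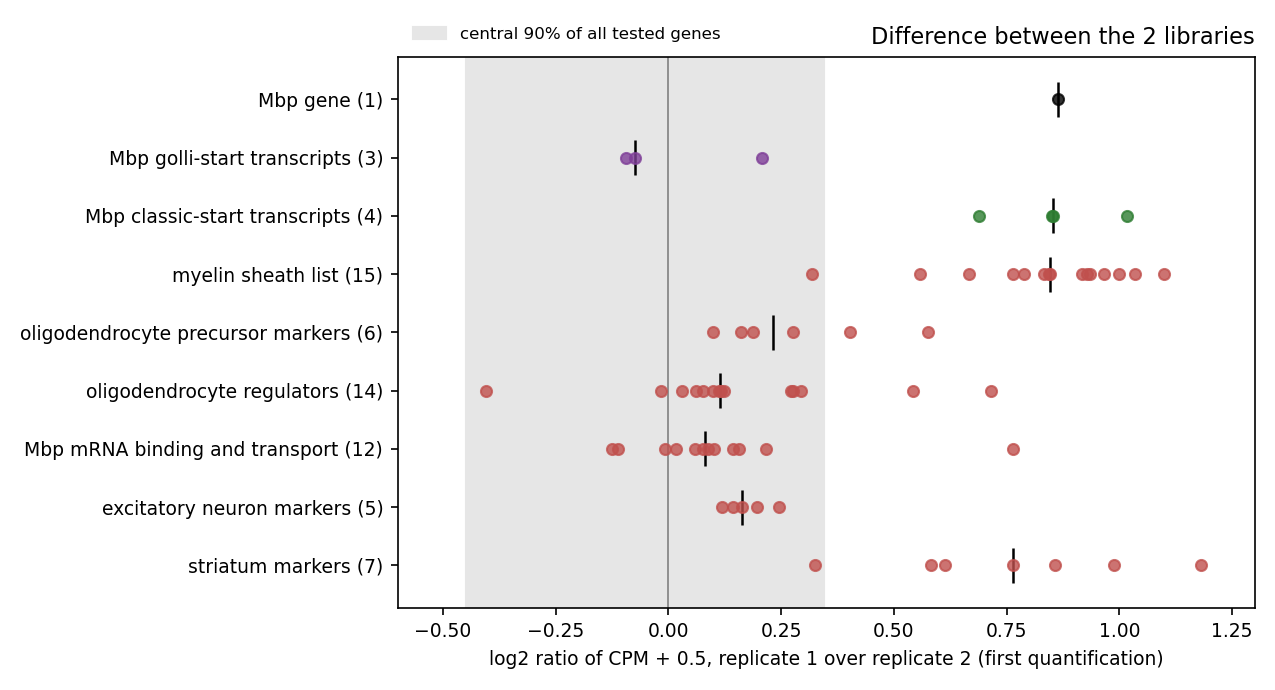
Log2 ratio of replicate 1 over replicate 2 (CPM + 0.5, first quantification) for the Mbp gene, its coding golli-start transcripts, its tested classic-start transcripts with at least 5% of Mbp TPM in a table, and the genes of each list (number tested in brackets; black bars, medians). Grey marks the central 90% of tested genes, between -0.45 and 0.35. Mbp (0.86) lies with the myelin and striatum lists, and Mbp-205 (-0.09) lies within the grey band.

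Among 5618 protein-coding genes with a mean of 1000 counts or more, 6 had a log2 ratio at or above that of Mbp, Mbp itself not counted. The 6 genes nearest to it in this measure, which is the distance in 1 log2 ratio over 2 libraries, were Gsn (0.86), Ppp1r1b (0.86), Mag (0.85), Cldn11 (0.84), Ugt8a (0.83) and Mobp (0.94). Gsn encodes gelsolin, an actin-severing protein with 63.8 TPM in replicate 1 and 38.6 TPM in replicate 2. Mag and Cldn11 are proteins of the sheath and Ugt8a makes a myelin lipid, while Ppp1r1b is a marker of striatal neurons. Ppp1r1b had 112 TPM in replicate 1, against 62.9 TPM in replicate 2. The only annotated gene that overlaps the Mbp span was Rpl21-ps8, a pseudogene on the opposite strand (82523539 to 82524021), with 2.6 counts in replicate 1 and 0 in replicate 2.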

How the data were processed

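The labels call the 2 libraries biological replicates of 1 group. Per the labels and the text files deposited with them, RNA was column-extracted and depleted of ribosomal RNA, and the authors quantified each library on mm10 with GENCODE M21. The sources used here name neither the tools nor the strand settings. The deposited first gene and transcript tables hold expected counts (estimated reads, not normalised), TPM, a percent share per transcript and posterior means with SDs, per the file headers. The deposited second table holds estimated counts and TPM from the reads. Mm10 is the C57BL/6J genome, and reads were not separated by parental allele here.

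Transcript structures came from the M21 annotation. A transcript has a golli start where its start lies in the upstream part of the gene span, up to its midpoint. Counts were rounded, and replicate 1 was compared with replicate 2 by a two-sided exact binomial test, with shares from edgeR 4.0.16 TMM library sizes (R 4.3.3), for features with at least 10 counts in a library, with Benjamini-Hochberg adjustment at 0.05. Log2 ratios use CPM plus 0.5, which understates low genes. Counting SEs use the counts alone, and intervals cover counting error only. DESeq2 1.42.0 size factors, total counts, spike-ins, no filter, other added constants and an edgeR test with an assumed dispersion of 0.01 were alternatives. The test was checked on simulated data. Transcripts with 5% or more of Mbp TPM in a table and coding golli-start transcripts were named. From each list the 3 genes highest in mean TPM and the highest and lowest log2 ratio were named. Members and lists were chosen with earlier results of these data known. No sequence of this locus is printed. Some genes that this rule would name are not reported here.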

Additional observations from a re-analysis of the deposited data

How the results depend on the processing

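Of 94 alternative values, 82 kept their direction and side of the threshold or moved by less than the spread. This count includes outcomes fixed in advance. A level or share from 1 replicate always lies within the SD of 2 libraries, and the low-count filter does not enter the log2 ratio of Mbp. Relative to protein-coding genes alone, mean Mbp was 1555 TPM in the first quantification, against 795 TPM over all rows. The second quantification moved the golli share to 30.4% (3.12% in the first), the exon 2 share to 39.8% (20.3%) and the exon 6 share to 37.2% (34.3%), and shares of counts in place of TPM gave 7.24%, 12.5% and 29.6%. It also turned Mbp-201 (0.87, against -0.07) and Mbp-209 (-0.69, against 0.85). The cause was not tested. Leaving out each replicate in turn gave Mbp levels of 575 to 1014 TPM, golli shares of 2.11% to 4.12%, exon 2 shares of 19.0% to 21.5% and exon 6 shares of 32.8% to 35.7%. An assumed dispersion of 0.01 in edgeR left 182 genes called, against 3830, with Mbp still called (adjusted p = 0.00534). The log2 ratio of Mbp ran between 0.81 and 0.88 over the other settings. All 15 myelin sheath genes were called higher in replicate 1 under each other scaling and in the second quantification. The comparisons without Mbp-201 were added after seeing the data. With 2 libraries, SDs rest on 2 values, and no estimate of the spread between mice can be had. No paired analysis was possible because there is only 1 group.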
